A study of Mus musculus with 29 samples.

Results

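Type 2 steps are stretches of H2Aub type 2 that have type 1 on one side and type 3 on the other. They come from a segmentation of mouse chromosomes 1 to 19 in which every stretch carries an H2Aub type from 1 to 5. The segments were sorted by chromosome and start, and type 2 segments whose direct neighbours were of types 1 and 3 were kept. The members were thus chosen by the type labels themselves, and their number, length and neighbours are a description. This gave 1366 steps, which are 22.8% of the 6000 type 2 segments and 4.33% of all 31563 segments. The other type 2 segments were 1453 islands inside type 1, 1379 islands inside type 3 and 1802 segments beside type 4 or 5. The steps spanned 60.7 Mb, or 21.9% of the type 2 length and 2.47% of the 2462.7 Mb segmented. The types have no key in the sources used here, so they are given by number, no type stands for a known level of the mark, and a step is a place in an order of labels rather than a measured gradient.

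The series profiled H2Aub and H3K27me3 by CUT&RUN, which uses antibody-bound nuclease to free the DNA around a mark, in 29 mouse libraries of 16 groups. H2Aub libraries of maternal Eed knockouts were made from germinal vesicle oocytes (2, B6/129 mixed, Gdf9-Eed (fl/fl)), 4-cell embryos (2) and morulae (2), the embryos being B6/129 mixed x PWK of the cross Gdf9-Eed (fl/fl) x WT. Gdf9 in the knockout label is an oocyte-expressed gene, and in these embryos the father was WT. H2Aub libraries labelled WT came from germinal vesicle oocytes (2, B6/129 mixed, carrying Eed (fl/fl)), metaphase II oocytes (2, B6/DBA) and zygotes (2, B6/DBA x PWK). They also came from 2-cell embryos (3, of which 2 were Eed (fl/fl) x WT on B6/129 mixed x PWK and the other B6/DBA x PWK). Further WT groups were 4-cell embryos (2) and morulae (2), both Eed (fl/fl) x WT on B6/129 mixed x PWK, and inner cell mass (1) and E6.5 epiblast (2), both B6/DBA x PWK. In 4-cell embryos of B6/DBA x PWK, PR-DUB OE and PR-DUB CTR groups each held 1 H2Aub and 2 H3K27me3 libraries, and 1 H3K27me3 library came from WT germinal vesicle oocytes (B6/DBA). The segmentation has no column for any library, so the comparisons between genotypes, stages and PR-DUB groups were not analysed here, and read depth is unknown. Which libraries the segmentation was built from is not given in the sources used here.

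H2Aub is histone H2A carrying a single ubiquitin on lysine, placed by Polycomb repressive complex 1 and removed by the PR-DUB deubiquitinase. Together with H3K27me3, the mark of Polycomb repressive complex 2, it is known for keeping developmental genes silent, and it can lie over single CpG-rich promoters or over broad domains. In oocytes and early embryos it is known to cover large stretches of the genome that change during the first cleavages.

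Few genes started inside a step. The sequences below are promoters of genes whose own start lay in a step, taken from the longest steps downwards, and they are shown because CpG-rich and CpG-poor promoters both occurred there. Each window of 300 bases runs from 250 bases before to 50 bases after a listed start (RefSeq, GRCm38.p6, 5′ to 3′ on the gene's strand), with every CG in capitals. The CpG-rich windows belonged to Akap13, a kinase anchoring protein, Fmnl2, an actin-assembling formin, and Fbxo48, an F-box protein.
Akap13 (chr7:75455284-75455583, plus strand): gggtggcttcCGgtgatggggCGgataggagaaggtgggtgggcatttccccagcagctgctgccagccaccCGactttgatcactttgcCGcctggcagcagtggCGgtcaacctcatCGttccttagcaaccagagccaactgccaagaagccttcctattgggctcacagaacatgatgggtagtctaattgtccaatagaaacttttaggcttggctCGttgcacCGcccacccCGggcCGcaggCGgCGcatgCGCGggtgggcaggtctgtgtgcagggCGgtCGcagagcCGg
Fmnl2 (chr2:52857618-52857917, plus strand): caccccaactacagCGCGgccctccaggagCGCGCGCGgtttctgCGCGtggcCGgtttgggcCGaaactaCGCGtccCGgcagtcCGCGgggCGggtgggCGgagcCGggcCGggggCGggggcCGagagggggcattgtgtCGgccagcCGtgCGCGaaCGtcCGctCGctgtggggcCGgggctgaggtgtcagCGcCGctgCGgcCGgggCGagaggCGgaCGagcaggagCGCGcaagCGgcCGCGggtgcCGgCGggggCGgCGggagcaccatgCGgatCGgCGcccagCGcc
Fbxo48 (chr11:16951125-16951424, plus strand): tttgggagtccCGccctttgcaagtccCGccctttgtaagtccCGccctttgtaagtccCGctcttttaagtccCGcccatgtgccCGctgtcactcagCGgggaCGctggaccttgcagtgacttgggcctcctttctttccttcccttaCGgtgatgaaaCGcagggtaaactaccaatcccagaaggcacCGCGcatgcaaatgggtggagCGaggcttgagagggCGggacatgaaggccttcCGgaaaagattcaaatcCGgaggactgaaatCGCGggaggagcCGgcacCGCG
The CpG-poor windows belonged to Scp2d1, a sterol carrier protein family member, and to the beta-defensin genes Defb10 and Defb9, whose products are antimicrobial peptides.
Scp2d1 (chr2:144823416-144823715, plus strand): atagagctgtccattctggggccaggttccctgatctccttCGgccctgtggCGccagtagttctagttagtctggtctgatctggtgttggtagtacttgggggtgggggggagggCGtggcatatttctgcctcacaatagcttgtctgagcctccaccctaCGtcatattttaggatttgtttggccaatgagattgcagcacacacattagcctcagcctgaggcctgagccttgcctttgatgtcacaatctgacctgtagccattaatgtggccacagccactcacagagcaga
Defb10 (chr8:21858651-21858950, plus strand): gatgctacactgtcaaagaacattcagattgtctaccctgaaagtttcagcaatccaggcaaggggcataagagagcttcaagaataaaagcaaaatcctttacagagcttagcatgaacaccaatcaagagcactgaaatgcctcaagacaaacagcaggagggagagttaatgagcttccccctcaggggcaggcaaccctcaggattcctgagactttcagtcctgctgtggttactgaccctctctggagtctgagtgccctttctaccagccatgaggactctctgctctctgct
Defb9 (chr8:21885385-21885684, minus strand): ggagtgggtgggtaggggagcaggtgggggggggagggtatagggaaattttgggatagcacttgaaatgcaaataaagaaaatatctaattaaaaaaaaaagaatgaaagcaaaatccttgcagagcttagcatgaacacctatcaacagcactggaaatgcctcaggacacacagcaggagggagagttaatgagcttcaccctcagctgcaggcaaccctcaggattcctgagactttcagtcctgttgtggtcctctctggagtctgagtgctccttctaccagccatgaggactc
Akap13 held 17 CG dinucleotides (observed to expected ratio 0.606), Fmnl2 held 49 (1.09) and Fbxo48 held 21 (0.814), against 4 in Scp2d1 (0.193) and 0 in Defb10 and Defb9. The step around Akap13 spanned 230 kb (chr7:75415001-75645000), that around Fmnl2 210 kb (chr2:52785001-52995000) and that around Fbxo48 130 kb (chr11:16905001-17035000). The Scp2d1 step spanned 380 kb (chr2:144645001-145025000), and Defb10 and Defb9 shared a step of 260 kb (chr8:21745001-22005000).

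The steps also held part of the microRNA cluster of the Dlk1 to Dio3 imprinted domain, which is known to be expressed from the maternal chromosome. Of 34 miRNA genes in steps, 25 lay in a single step of 25 kb (chr12:109705001-109730000), so these sequences are shown; the cluster was picked after its values were seen. Mature sequences that share a seed with another miRNA in the steps are grouped below, with the seed (bases 2 to 8, the part that pairs first with target mRNAs) in capitals (RefSeq, GRCm38.p6).
miR-379-5p (chr12:109709065-109709085, plus strand): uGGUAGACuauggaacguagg
miR-1193-5p (chr12:109715716-109715735, plus strand): uGGUAGACcggugacguaca
miR-379-3p (chr12:109709102-109709123, plus strand): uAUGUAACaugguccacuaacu
miR-411-3p (chr12:109710225-109710246, plus strand): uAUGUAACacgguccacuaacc
miR-299a-3p (chr12:109710676-109710697, plus strand): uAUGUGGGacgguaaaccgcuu
miR-299b-3p (chr12:109710645-109710662, minus strand): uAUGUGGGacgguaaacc
miR-1197-5p (chr12:109712361-109712381, plus strand): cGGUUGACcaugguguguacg
miR-758-5p (chr12:109712823-109712843, plus strand): uGGUUGACcagagagcacacg
miR-376b-5p (chr12:109723471-109723492, plus strand): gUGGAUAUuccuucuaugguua
miR-376c-5p (chr12:109722733-109722754, plus strand): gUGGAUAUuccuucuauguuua
miR-29b-3p (chr1:195037091-195037113, plus strand): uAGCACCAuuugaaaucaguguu
miR-29c-3p (chr1:195037600-195037621, plus strand): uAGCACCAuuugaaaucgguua
The pairs fell into 6 shared seeds. In 5 of them both miRNAs came from the chromosome 12 step, and in the other they were miR-29b-3p and miR-29c-3p, whose genes lay in a 45 kb step on chromosome 1 (chr1:194995001-195040000). The hairpin genes of the miR-299 pair overlap on opposite strands.

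Step lengths were uneven. Step length had a median of 20 kb and a mean of 44.5 kb (SD 65.02, n = 1366), ran from 5 to 610 kb, and came in bins of 5 kb. Steps of 5 kb numbered 285 (20.9%), while islands inside type 1 and islands inside type 3 had 0 segments of 5 kb and segments beside type 4 or 5 had 257 (14.3%). At the other end, 164 steps (12.01%) of at least 100 kb held 50.0% of the step length. The median was 15 kb for islands inside type 1 and 30 kb for islands inside type 3 and for segments beside type 4 or 5. Lengths come from the same segmentation as the choice of members and are a description.

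**Figure D1:**
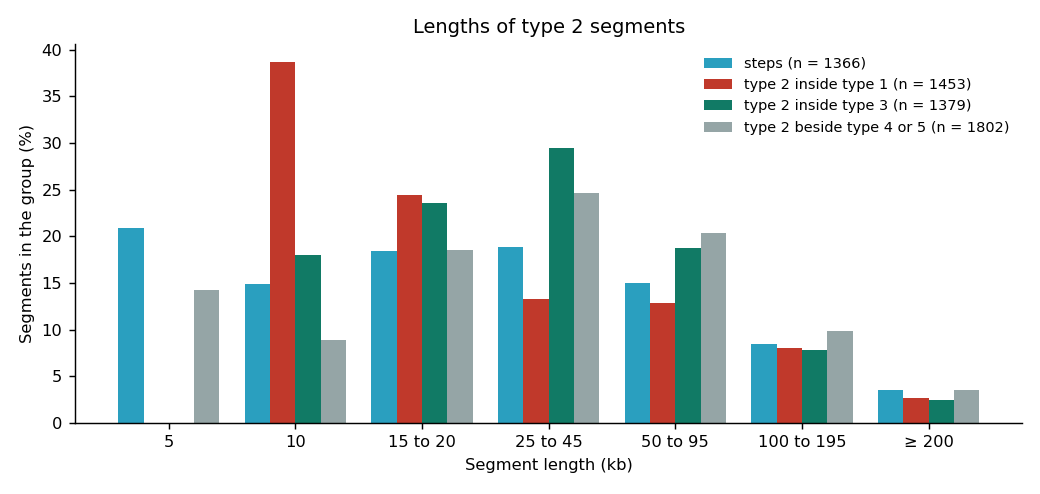
Share of segments (y axis, %) by length in kb (x axis) for steps and for the other type 2 segments, as bars from 0. Steps have 20.9% of their segments in the 5 kb class, where both kinds of island have none.

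Steps lay on all 19 chromosomes and ran in both directions. Their density was 0.551 ± 0.113 per Mb (SD over 19 chromosomes), from 0.378 to 0.764, and they made up 18.03 to 27.01% of the type 2 segments of a chromosome. The type 1 neighbour had the lower coordinate in 658 steps and the type 3 neighbour in 708, so 48.2% ran from type 1 to type 3 with rising coordinate (95% Clopper-Pearson interval 45.5 to 50.9%, counting error only). An even split lies inside that interval. A step was an uncommon way from type 1 to type 3: types 1 and 3 met directly at 8180 borders, so 14.3% of 9546 passages between them went through a step.

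Type 1 neighbours of steps had a median length of 40 kb (all type 1 segments 50 kb), and type 3 neighbours had a median of 25 kb (all type 3 segments 30 kb). The type 1 neighbour was the longer of the pair in 841 steps (61.6%), the type 3 neighbour in 454, and they were equal in 71. A step was shorter than both neighbours in 516 cases (37.8%) and longer than both in 321. Beyond the type 1 neighbour came type 3 again at 721 steps (52.8%), against 28.4% of the 5254 sides of all type 2 segments with a type 1 neighbour. Beyond the type 3 neighbour came type 2 at 573 steps (41.9%), type 4 at 411 (30.1%) and type 1 at 304 (22.3%), against 44.4%, 30.9% and 21.3% over 4630 such sides of all type 2 segments. Of the steps, 1344 touched both neighbours and 22 overlapped or missed one. When the segmentation was laid out bin by bin with the shorter segment used in overlaps, 1350 of the 1366 steps were found again and 12 others appeared.

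Protein-coding genes ran through steps but seldom started there. A gene was placed at its start base where a strand was listed (80.1% of 20558 genes) and at the middle of its body otherwise. By this, steps held 183 genes, or 3.01 placed genes per Mb, against 7.81 in the type 1 flanks, 13.5 in the type 3 flanks and 8.35 over all chromosomes. Flanks are the 50 kb beside a step, or the whole neighbour where that is shorter. The density was lower in steps than in the type 1 flank on 19 of 19 chromosomes, and lower than in the type 3 flank on 19 of 19. Per chromosome it was 3.19 ± 1.75 in steps, 8.27 ± 2.88 in type 1 flanks and 13.8 ± 4.84 in type 3 flanks (SD, n = 19). With stranded genes only and without chromosome 18, where no gene had a listed strand, starts lay at 2.10, 6.00 and 11.6 per Mb in the same order. With every gene placed by its middle the values were 3.97 in steps, 10.6 in type 1 flanks and 9.81 in type 3 flanks, so the order of the flanks turned while steps stayed below both. The other type 2 segments lay in the same range, at 3.16 inside type 1, 4.00 inside type 3 and 2.39 beside type 4 or 5. Steps were lower than islands inside type 3 on 15 of 19 chromosomes, and lower than islands inside type 1 on 12. Of the steps, 1216 (89.0%) had no placed gene and 135 had 1. A short segment often holds no gene whatever its kind, and the median step was 20 kb. This share was not calculated for other segments, so it is not a measure of depletion. Density was 7.26 per Mb in steps under 25 kb, 2.40 in steps of at least 25 kb and 1.32 in steps of at least 100 kb.

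Gene bodies covered 51.9% of the step length, 59.5% of the type 1 flanks, 47.2% of the type 3 flanks and 39.9% of all chromosomes. Over chromosomes the cover was 52.6 ± 13.5% in steps, 59.9 ± 6.89% in type 1 flanks and 47.85 ± 7.39% in type 3 flanks (SD, n = 19). Steps were below the type 1 flank on 12 chromosomes and above it on 7. They were above the type 3 flank on 12 and below it on 7. The spread of these differences within chromosomes was not calculated. Islands inside type 1 (43.5%) and segments beside type 4 or 5 (37.4%) were covered less than steps on 15 of 19 chromosomes each, and islands inside type 3 (59.2%) more on 15. By step, 555 (40.6%) had no protein-coding gene, 435 (31.8%) lay within gene bodies with no gene border inside, and 376 (27.5%) held at least 1 border of a gene. Without a gene were 55.6% of islands inside type 1, 39.4% of islands inside type 3 and 62.5% of segments beside type 4 or 5. Within gene bodies with no gene border were 26.7%, 37.93% and 18.48% in the same order, so steps lay between both kinds of island. A gene border was held by 17.69%, 22.7% and 18.98% in that order, each below the share in steps. These shares were not matched for segment length.

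**Figure D2:**
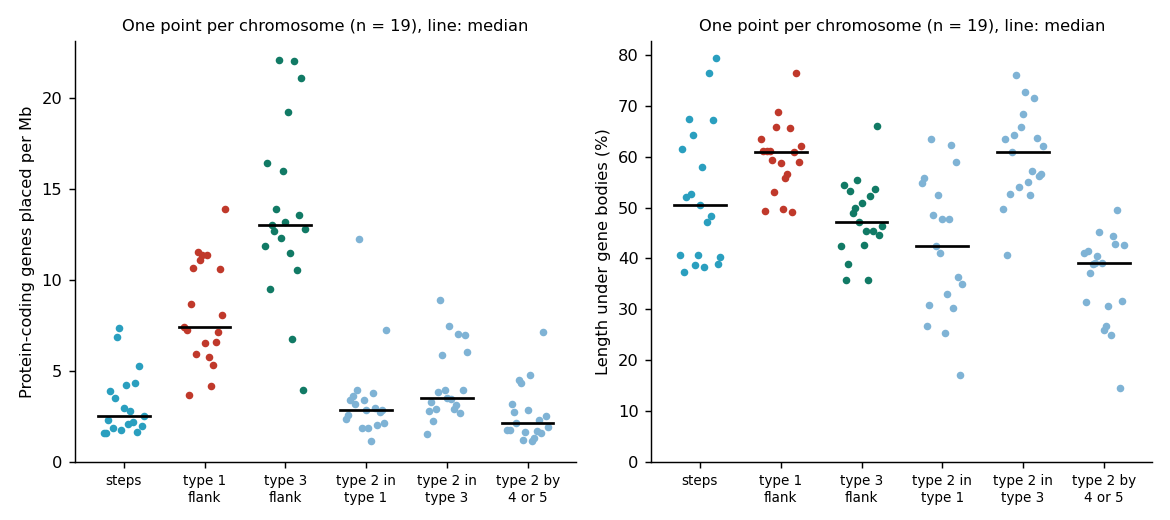
Protein-coding genes placed per Mb (left y axis) and share of length under gene bodies (right y axis, %) for steps, their flanks and the other type 2 segments (x axis). Each point is a chromosome (n = 19) and each line the median. In the left panel steps (1.56 to 7.34 per Mb) lie below both flanks on every chromosome, and in the right panel the groups overlap.

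The change of gene density was sharp at the type 3 border. The last 5 kb of the step held 5.42 placed genes per Mb, against 20.6 in the first 5 kb of type 3 and 17.9 in the next 5 kb. From 15 kb into type 3 on, bins held 9.30 to 11.98 per Mb up to 50 kb. At the other border the first 5 kb of the step held 7.47 per Mb and the next bin 5.18, against 6.00 in the last 5 kb of type 1, so no such jump was seen there. Inside the step, bins 15 to 50 kb from either border held 2.16 to 4.88 per Mb. These bins come from fewer and longer steps, 726 in the bin around 17.5 kb and 369 in that around 47.5 kb. A step of 5 kb counts in both end bins. Steps under 25 kb held 7.26 placed genes per Mb and longer ones 2.40. The fall from border to inside thus mixes position with step length. Of 219 stranded genes that started within 10 kb of the step on the type 3 side, 109 were read towards the step and 110 away from it. On the type 1 side 27 of 68 were read towards the step (39.7%, 95% Clopper-Pearson interval 28.0 to 52.3%).

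**Figure D3:**
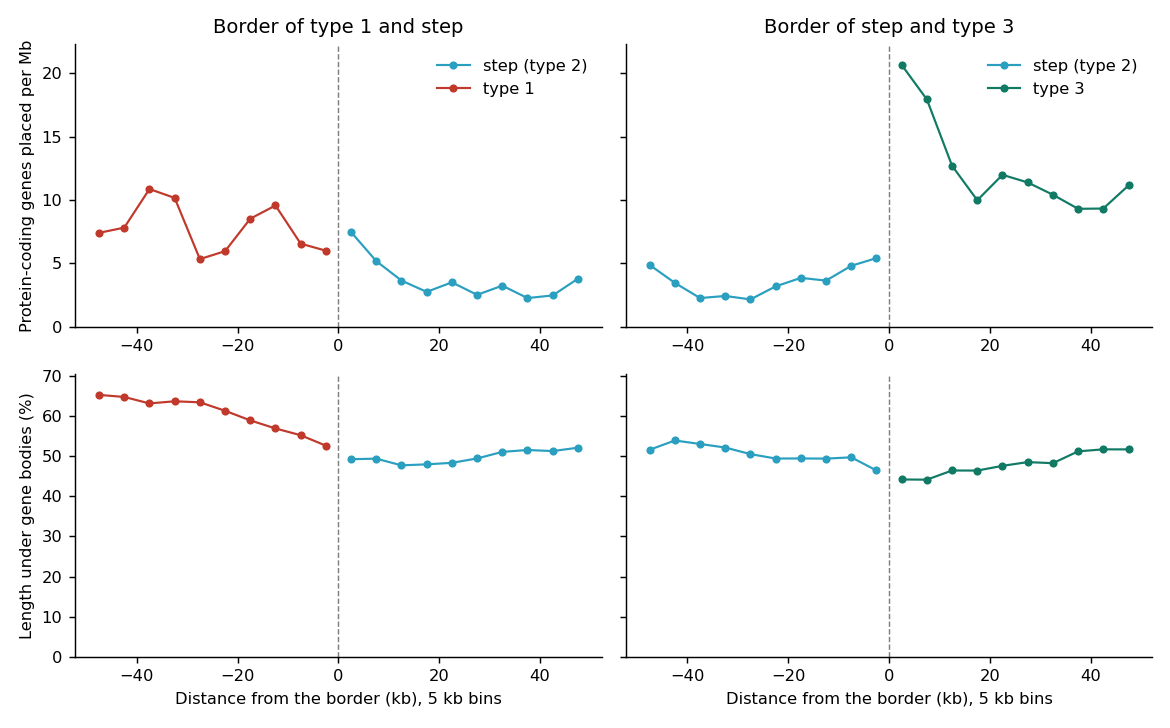
Protein-coding genes placed per Mb (top) and share of length under gene bodies in % (bottom) in 5 kb bins by distance in kb from the border of steps with type 1 (left) and with type 3 (right), over all 1366 steps. Placed genes reach 20.6 per Mb in the first bin of type 3, while gene body cover changes by a few percent at the borders. Bins further from a border come from fewer steps or neighbours, as short ones do not reach them.

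Gene ends were more frequent in steps than gene starts. On the 18 chromosomes with stranded genes, steps held 297 gene ends and 123 gene starts, which is 5.06 and 2.10 per Mb. Ends outnumbered starts on 18 of 18 chromosomes, with a ratio from 1.19 to 5.67 (median 2.71). Over all steps the ratio was 2.41, against 1.24 in the type 1 flanks, 0.863 in the type 3 flanks, 1.12 in islands inside type 1, 1.76 in islands inside type 3 and 1.64 in segments beside type 4 or 5. With all annotated genes it was 1.53 in steps, 1.16 in the type 1 flanks, 0.909 in the type 3 flanks and 1.25 in the other type 2 segments together. For protein-coding genes the ratio was larger in steps than in the other type 2 segments together on 15 chromosomes, smaller on 2 and equal on 1. In steps under 25 kb ends lay at 16.9 per Mb and starts at 5.80.

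Genes reached steps from both sides. Of 725 pairs of a stranded gene and a step it overlaps, 360 were genes crossing the whole step, 143 were genes that started beyond the type 1 border and ended in the step, and 99 started beyond the type 3 border and ended in it. Another 38 started in the step and ran into type 1, 30 started in it and ran into type 3, and 55 lay wholly inside. A gene from outside ended in 211 steps, from the type 1 side only in 112, from the type 3 side only in 69 and from both sides in 30. The longest of these 30 lay on chromosome 14 (chr14:23025001-23400000), where Lrmda, a melanocyte differentiation gene, ended from the type 1 side and Kcnma1, the pore-forming subunit of the BK potassium channel, from the type 3 side. Next came a 180 kb step on chromosome 6 (chr6:17845001-18025000), where St7 ended from the type 1 side and Wnt2, a secreted Wnt ligand, from the type 3 side. In a 145 kb step on chromosome 14 (chr14:16420001-16565000) Top2b, a DNA topoisomerase, ended from the type 1 side and Rarb, a retinoic acid receptor, from the type 3 side. These pairs were taken in order of step length after their values were seen.

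A protein-coding gene crossed the whole of 449 steps (32.9%), reaching past both ends. A gene body likewise held 27.3% of islands inside type 1, 38.7% of islands inside type 3 and 18.8% of segments beside type 4 or 5. Steps lay between the 2 kinds of island. There were 402 genes that crossed steps in 450 crossings, 42 of them crossed more than 1 step, and no gene crossed more than 3. Their median body was 163 kb, against 17.6 kb over all protein-coding genes. A gene must be longer than a step to cross it, so the definition itself favours long bodies. Of 360 crossings with a known strand, 200 began on the type 3 side (55.6%, 95% Clopper-Pearson interval 50.3 to 60.8%). At the border of step and type 3, genes that crossed it began on the type 3 side in 299 of 489 cases (61.1%, 56.7 to 65.5%). At the border of step and type 1, they began on the type 1 side in 303 of 541 cases (56.0%, 51.7 to 60.2%). At direct borders of types 1 and 3, 2079 of 3466 began on the type 3 side (60.0%, 58.3 to 61.6%). These shares count starts on either side of a border, and a start on the step's side may lie in the step or beyond it. Crossings that share a gene are not independent, and the intervals cover counting error only.

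**Figure D4:**
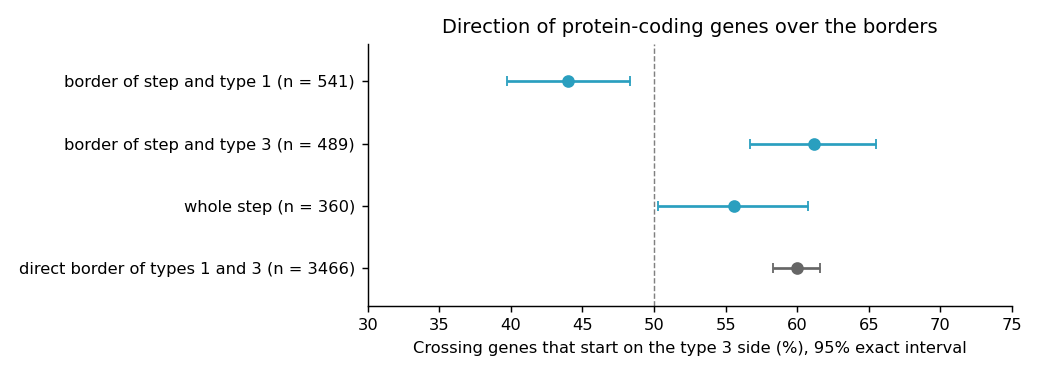
Share of crossing genes that start on the type 3 side (x axis, %) at the borders of steps, over whole steps and at direct borders of types 1 and 3, with 95% exact Clopper-Pearson intervals as bars and an even split as the dashed line. The share is below the line at the border with type 1 and above it at the border with type 3.

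The start of a crossing gene lay at a median of 45.7 kb from the step, 19.1 kb where it began on the type 3 side and 101 kb where it began on the type 1 side. The start base itself was in type 3 for 231 of the 360 crossings (64.2%), in type 1 for 67 (18.6%), in type 4 for 28, in type 2 for 22 and in type 5 for 12. Among 1772 stranded genes of at least 100 kb, starts were in type 3 for 38.4% and in type 1 for 22.4%. The sets are unlike: crossings count a gene once per step and have no length minimum. A crossing gene also runs past both ends of a step, where types 1 and 3 lie, which the long genes need not do. Of the 360 crossings 160 began on the type 1 side but only 67 started in type 1. Many genes counted on the type 1 side therefore did not start in the adjacent type 1 segment but beyond it.

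Of the 10 longest steps, 5 lay wholly inside a single long gene. The longest, 610 kb (chr14:27715001-28325000), lay wholly in Erc2, an active zone scaffold gene of nerve terminals, and made up 71.2% of its body. The next, 550 kb (chr5:26855001-27405000), lay in Dpp6, an auxiliary subunit of Kv4 potassium channels (60.4% of the body). This one is a step by sorted order only: a 15 kb type 3 segment overlaps its inside, 405 kb from the type 1 border, and a type 1 segment follows its far end. Then came 470 kb in Ptprt, a receptor tyrosine phosphatase gene (41.3%; chr2:162185001-162655000), 445 kb in Tenm2, a teneurin adhesion gene (36.2%; chr11:36785001-37230000), and 435 kb in Rbfox1, a neuronal splicing factor gene (28.5%; chr16:6705001-7140000). All 5 were covered by the gene over their whole length. The step of 460 kb on chromosome 8 (chr8:8090001-8550000) and that of 365 kb on chromosome 1 (chr1:185695001-186060000) held no protein-coding gene.

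**Figure D5:**
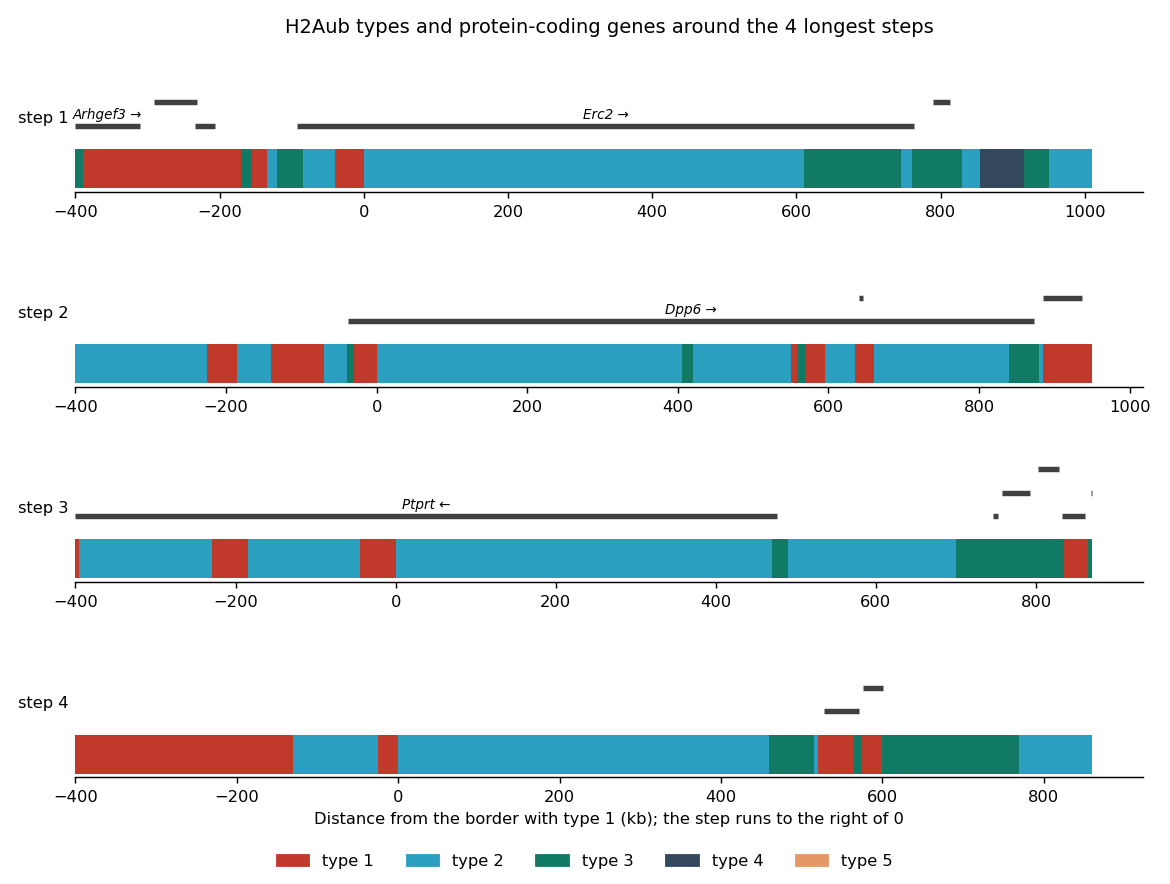
H2Aub types (coloured band) and protein-coding gene bodies (grey lines; arrows give the direction of named genes of over 60 kb) around the 4 longest steps, by distance in kb from the border with type 1 (x axis). Steps 1 to 3 lie inside Erc2, Dpp6 and Ptprt and step 4 holds no gene; a nested type 3 segment shows at 405 kb in step 2.

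Of the remaining long steps, 3 overlapped protein-coding genes. Kcnmb2, an auxiliary subunit of the BK channel, had 99.0% of its 298 kb body in a 400 kb step (chr3:31905001-32305000). Kcnma1, that channel's pore subunit, had 65.6% of its 713 kb in 2 steps, but 15.1% in the 375 kb step it shares with Lrmda. The step of 380 kb on chromosome 2 held 73.3% of Dtd1, a deacylase that clears D-amino acids from tRNA, and all of Scp2d1.

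Among the genes of longest body that cross a step, the step was often a small piece. Lsamp, a limbic system adhesion gene of 2197 kb, was 9.10% type 2 and crossed 1 step of 115 kb, with its start in type 5. That step is 1 of the 22 that overlap or miss a neighbour. Csmd1, a complement-regulatory membrane protein gene (1643 kb), was 88.7% type 2 yet crossed a step of only 20 kb. Rbfox1 (1528 kb) was 89.7% type 2 and crossed 3 steps of 435, 255 and 220 kb, and its start lay in type 2. Pde4d, a cAMP phosphodiesterase gene (1302 kb), also crossed 3 steps, of 10, 10 and 5 kb, and was 9.74% type 2. Tenm2 (1230 kb) was 48.4% type 2 and crossed steps of 445 and 45 kb. The teneurin gene Tenm3 crossed 1 step of 5 kb, the tubulin deglutamylase gene Agbl4 1 of 85 kb and the cGMP-dependent kinase gene Prkg1 1 of 60 kb.

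Whole genes were rare in steps. Of 20558 protein-coding genes, 198 (0.963%) had most of the body in steps, 844 (4.11%) touched a step and 69 (0.336%) lay wholly in a step. Steps were 2.47% of the segmented length. A whole gene lay in 3.29% of steps, 5.44% of islands inside type 1, 6.74% of islands inside type 3 and 5.44% of segments beside type 4 or 5. It depended on length, with 0.947% of steps under 25 kb and 6.06% of steps of at least 25 kb. The share that touched a step grew with gene length, from 0.907% of genes under 10 kb to 27.6% of those of 300 kb or more. A longer body reaches over more of the genome, and this share was not calculated for other segments. The longest genes wholly inside were Cyp7b1, an oxysterol hydroxylase of bile acid synthesis (172 kb; step chr3:18060001-18245000), Ipcef1, an exchange factor partner (169 kb; step chr10:6785001-7055000), and Ppp1r14c, an inhibitor of protein phosphatase 1 (99.0 kb). Musk, the muscle kinase of the neuromuscular junction, followed at 92.1 kb, Gys2, liver glycogen synthase, at 50.5 kb, and Slc17a8, the vesicular glutamate transporter VGLUT3, at 47.2 kb. Plek, a platelet kinase substrate, Albfm1, an albumin family gene, Fbh1, a DNA helicase, and C1galt1, a galactosyltransferase of O-glycans, measured 26.8 to 37.5 kb.

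The most placed genes in a step lay in a defensin cluster. The step of 260 kb on chromosome 8 held 11, of which 9 were beta-defensin genes (Defb1, Defb2, Defb9, Defb10, Defb11, Defb13, Defb15, Defb35 and Defb50), beside Fam90a1a and Ccdc70. A 95 kb step on chromosome 14 (chr14:41110001-41205000) held 4: Mat1a, a liver methionine adenosyltransferase, and the collectin genes Sftpa1, Sftpd and Mbl1, whose products bind sugars on microbes. A 50 kb step on chromosome 17 (chr17:46660001-46710000) held Rrp36, Klhdc3, Mea1 and the phosphatase subunit gene Ppp2r5d. Another 5 steps held 3 each. Of these, a 60 kb step on chromosome 2 held Fbh1, Gm46731 and Ankrd16, and a 55 kb step on chromosome 4 held the olfactory receptor genes Olfr1329 and Olfr1328 with Lao1, an amino acid oxidase gene.

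The gene lists were mostly outside steps, as were genes at large. Over 22 lists, 15 members had most of the body in steps. Set beside the 0.963% of all protein-coding genes, the share of members was 0 of 39 Hox cluster genes, 0 of 114 developmental transcription factors and 2 of 47 secreted developmental ligands (4.26%, 0.520 to 14.5%). The ligands were Wnt2, with 83.6% of its body in steps, and Inhba, the activin beta A subunit, with 63.4%. Bmp3, a bone morphogenetic protein, touched a step with 47.4% and Tbx15, a T-box factor of skeleton and skin, with 47.6%. Both were named after their values were seen. The step that Bmp3 touched is 1 of the 22 that overlap or miss a neighbour. Among primitive endoderm genes 1 of 15 lay mostly in steps, the laminin gene Lamb1 (54.3%). Among potassium channel genes it was 2 of 91 (2.20%, 0.267 to 7.71%), the BK channel genes given above.

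Of other large families, 7 of 1099 olfactory receptor genes lay in steps (0.637%), among them Olfr410, Olfr411 and Olfr412 in a 50 kb step on chromosome 11 and Olfr692 on chromosome 7. Of 388 zinc finger protein genes it was Zfp386 alone (0.258%), and of 360 solute carrier genes Slc17a8 and Slc25a27, a mitochondrial carrier (0.556%). The number with most of the body in steps was 0 of 48 imprinted genes, 0 of 39 oocyte and maternal-effect genes, 0 of 22 for 2-cell stage genes, 0 of 22 pluripotency genes and 0 of 15 trophectoderm genes. It was also 0 of 39 Polycomb complex genes, 0 of 31 germline and meiosis genes, 0 of 31 proteasome subunit genes, 0 of 42 glutamate and GABA receptor genes and 0 of 349 vomeronasal receptor genes. Lastly it was 0 of 109 keratin genes, 0 of 42 collagen genes, 0 of 67 protocadherin genes and 0 of 77 ribosomal protein genes. The upper limit of each of these lists (95% Clopper-Pearson) was above the share of all genes, the lowest being 1.05% for vomeronasal receptor genes.

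Touching a step was also counted by list. Of 42 collagen genes 7 touched a step (16.7%, 6.97 to 31.4%), against 4.11% of all genes. Their median body was 110 kb, against 17.6 kb over all genes, and 13.8% of all genes with a body of 100 to 300 kb touched a step. Among them were Col25a1 with 21.4% of its body in steps, Col4a3 with 18.5% and Col19a1 with 15.1%, named after their values were seen. The step in Col4a3 is 1 of the 22 that overlap or miss a neighbour. Solute carrier genes touched steps in 22 of 360 cases (6.11%, 3.87 to 9.11%) and potassium channel genes in 6 of 91 (6.59%, 2.46 to 13.8%), and both intervals include the share of all genes. Glutamate and GABA receptor genes, with a longer median body of 184 kb, did so in 2 of 42 cases (4.76%, 0.582 to 16.2%). Among Polycomb genes only Auts2, a subunit of a variant PRC1, touched a step (11.3% of 1106 kb).

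CpG-rich promoters were a smaller share of the promoters in steps than of those in the flanks. A window was called CpG-rich at an observed to expected CpG ratio of at least 0.6, and windows were listed for the stranded genes. Each gene gave a single window, the listed one nearest its own start, and was counted where that window lay. No limit was set on the distance, which was 379706 bases for Etl4. Some windows counted in steps thus belong to genes whose own start lay outside the step. In steps 46 of 128 windows were CpG-rich (35.9%, 95% Clopper-Pearson interval 27.7 to 44.9%), against 67.9% of 265 in the type 1 flanks (61.9 to 73.5%), 54.1% of 386 in the type 3 flanks (49.0 to 59.2%) and 49.8% of all 16457. Among the other type 2 segments the share was 19.9% inside type 1 (13.7 to 27.3%), 56.9% inside type 3 (48.6 to 64.8%) and 21.5% beside type 4 or 5 (15.4 to 28.6%). The share in steps was thus between those of the islands on either side, and its interval did not overlap that of either flank. These intervals cover counting error only. Windows that share a step or overlap each other are not independent, and the defensin step alone gave several CpG-poor ones. The GC box letters GGGCGG, searched on both strands, were in 32.0% of windows in steps against 47.3% of all windows. The other type 2 segments together had the same share as steps, 32.0%. By kind it was 27.4% inside type 1, 47.7% inside type 3 and 21.5% beside type 4 or 5. The letters TATAAA, also on both strands, were in 13.3% in steps, 16.9% in the other type 2 segments together and 13.5% of all windows.

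The chromosome 12 step that held the miRNA cluster had a type 1 neighbour of 20 kb below it, with 0 miRNA genes, and a type 3 neighbour of 45 kb above it (chr12:109730001-109775000), with 14 further miRNA genes. The type 2 to type 3 border therefore fell inside the cluster, after Mir544. Over all steps there were 0.560 miRNA genes per Mb, against 0.282 in the type 1 flanks, 1.12 in the type 3 flanks and 0.461 over all chromosomes. Without that step the value was 0.148 per Mb, from 9 genes in 8 other steps. The type 3 flanks counted 40 miRNA genes, among them the 14 beside that step. Their value was not recalculated without these, so it should not be set against 0.148. Of the 34 miRNA genes, 33 had mature sequences listed, 61 in all.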

How the data were processed

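The series holds 29 mouse CUT&RUN libraries of H2Aub or H3K27me3. The submitters' processing notes name the mm10 build and, with no roles, the tools deepTools 3.0.2, Picard 2.8.0, Bowtie2 2.3.4.3 and Trim Galore 0.4.5. The authors deposited 1 table of H2Aub types for the whole series, in which each segment carries a number from 1 to 5; this other kind of value is a category with no unit. Its name says that the types were made with ChromHMM, software that cuts a genome into states with a hidden Markov model. Not given in the sources used here are its version, its input libraries and what each type means. No column holds values of a library, so depth is unknown and no test between samples was made; 0 columns of per-sample values were left unused.

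Segments were sorted, and 0 touching segments of the same type had to be merged. Gene positions, strands, promoter windows and miRNAs came from RefSeq tables of GRCm38.p6 (mm10); 46709 genes (20558 protein-coding) were used and 333 on separate scaffolds were left out. Strand was known for 16457 protein-coding genes through the promoter table, which has none on chromosome 18. Flanks were 50 kb or the whole neighbour, whichever was shorter. A crossing gene reached at least 1 base past both ends of a step. Most of the body means over 50%. Intervals are exact 95% Clopper-Pearson intervals. Python 3.11.15, numpy 2.4.6, pandas 2.3.3 and scipy 1.17.1 were used, and the step rule was tested on simulated segments.

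Named genes are those of the 10 longest steps, of the 5 steps with most placed genes, the 10 longest bodies wholly in a step, the 10 longest genes that cross a step, and up to 6 members per list mostly in steps. Some genes that the rule takes are left out here. Promoters were printed for 3 CpG-rich and 3 other genes from the longest steps downwards whose start lay in the step and whose listed window began within 500 bases of it; the 500-base limit was added later. The members, lists and rules were chosen with earlier results of these data known. Alternatives were touching steps, the treatment of overlaps, merging, short steps, all annotated genes, whole neighbours, placing by the middle, reach of crossing genes and the CpG threshold.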

Additional observations from a re-analysis of the deposited data

How the results depend on the processing

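Of 42 alternative values for 12 results, 34 stayed within 1.5 times the count, the counting interval or the SD over chromosomes, and 8 moved. The number of steps was 1344 when both neighbours had to touch, 1360 with the longer and 1362 with the shorter segment in overlaps, 1366 without merging and 1081 with steps of at least 10 kb, where the median length was 30 kb. With all annotated genes, bodies covered 66.5% of type 1 flanks and 56.9% of type 3 flanks, and placed genes were 11.7 per Mb in steps, 17.5 in type 1 flanks and 28.2 in type 3 flanks, with the same order. Placing by the middle turned the order of the flanks, at 3.97 in steps, 10.6 in type 1 flanks and 9.81 in type 3 flanks. At a ratio of at least 0.75 the CpG-rich share was 26.6% in steps, against 35.2% of all 16457 windows. Over all annotated genes it was 15.7% in steps, and no share outside steps was calculated for that set. For crossing genes that start on the type 3 side, the share ran from 53.6% (steps of at least 25 kb, 95% Clopper-Pearson interval 45.4 to 61.8%) to 56.8% (reach of at least 5 kb), and the interval of the longer steps includes an even split. List members in steps numbered 16 when placed by the start, or by the middle where no strand was listed, and 19 when all were placed by the middle, against 15 by most of the body. No paired analysis was possible because the segmentation has no column for any library. The types are labels from 1 segmentation, so no result here carries an error between libraries.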

Other observations

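Genes for long noncoding RNAs were less sparse in steps than protein-coding genes. By the middle of the gene, steps held 284 of them, or 4.68 per Mb, against 3.88 in the type 1 flanks, 8.63 in the type 3 flanks and 5.003 over all chromosomes. Protein-coding genes placed the same way lay at 3.97 per Mb in steps, against 10.6, 9.81 and 8.35 in the same order. The difference was not particular to steps. Long noncoding RNA genes lay at 3.35 per Mb inside type 1, 5.19 inside type 3 and 3.89 beside type 4 or 5. For protein-coding genes these type 2 segments held 3.02, 6.99 and 3.19. Pseudogenes lay at 2.75 per Mb in steps, against 4.16 in the type 1 flanks, 3.03 in the type 3 flanks and 3.57 over all chromosomes. Small nucleolar RNA genes lay at 0.214 per Mb in steps, against 0.586, 0.337 and 0.518 in the same order. These densities carry no test.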
